A study of Homo sapiens with 6 samples.

Results

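The genes described are 10 human genes of the sensing of foreign RNA: the sensors DDX58, IFIH1, DHX58 and TLR3, the adaptors MAVS and TICAM1, the kinases TBK1 and IKBKE, the transcription factor IRF3 and the kinase EIF2AK2. They were chosen by name, as the rows of a gene expression table whose Ensembl identifier carries these symbols in GENCODE release 29, and they are 10 of the 58735 genes in that table. Messenger RNA was sequenced from 2 prostate cancer cell lines treated with 1 of 2 small interfering RNAs (siRNAs) against PLXND1, which encodes the semaphorin receptor plexin D1, or with a control siRNA. The H660 groups were 2 PLXND1 knockdown libraries, with siRNA 1 and siRNA 2, and 1 control library. The C4-2B MDVR groups were likewise 2 knockdown libraries and 1 control library. H660 is a line of neuroendocrine prostate cancer. C4-2B MDVR is known as an enzalutamide-resistant derivative of C4-2B, a prostate cancer line that expresses the androgen receptor. Each line is a single cell line, and the labels give no time after treatment and do not say whether the libraries came from separate cultures.

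RIG-I, the product of DDX58, and MDA5, the product of IFIH1, are helicases of the cytosol that bind double-stranded RNA, RIG-I through its ends and MDA5 along its length. Both signal through MAVS on the mitochondrial outer membrane, while TLR3 detects double-stranded RNA in endosomes and signals through TICAM1, also called TRIF. Both routes reach the kinases TBK1 and IKK-epsilon (IKBKE), which phosphorylate IRF3, and IRF3 then switches on interferon genes; interferon in turn raises several of the sensors in many cell types.

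PLXND1 was measured first as a check of the labels. It was at 7.62 and 7.54 FPKM (fragments scaled to exon length and library size, as computed by the authors) in the H660 knockdown libraries, against 9.13 FPKM in the H660 control. In C4-2B MDVR it was at 1.57 and 3.10 FPKM with siRNA 1 and siRNA 2, against 7.40 FPKM in the control. The H660 knockdown libraries thus kept 83.5% and 82.6% of the control level, and the C4-2B MDVR ones 21.2% and 41.8%. By limma over all genes the PLXND1 difference was −0.24 ± 0.31 log2 units (SE) in H660 (adjusted p = 1) and −1.37 ± 0.31 in C4-2B MDVR (adjusted p = 0.711), so it passed in neither line, and the H660 differences given here come from libraries that kept most of their PLXND1 RNA. The libraries held 17655802 to 24105369 fragments, recovered from the FPKM steps. The 8 neuroendocrine markers were all at 1 FPKM or more in the 3 H660 libraries and the 7 luminal prostate markers in the 3 C4-2B MDVR libraries, and each list summed to under 1.5 FPKM in the other line. Summed leukocyte markers ran from 0.487 to 2.60 FPKM and summed stromal and endothelial markers from 2.02 to 6.33 FPKM over the 6 libraries. The C4-2B MDVR control stood apart in its mitochondrial share, with mitochondrially encoded genes at 7.44% and 6.83% of fragments in the C4-2B MDVR knockdown libraries and 3.38% in that control; in H660 they were at 9.47% and 9.64% in the knockdown libraries and 8.58% in the control. That control is the only one of its line and cannot be left out of a knockdown comparison there.

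The start regions of the sensor genes are shown because interferon-induced genes often carry the element GAAANNGAAA, bound by interferon regulatory factors, and DDX58 and IFIH1 were, among the 9 genes tested, those with the largest differences between knockdown and control on the log2(FPKM + 1) scale, both in C4-2B MDVR. Windows of 300 bases, 250 before and 50 from each RefSeq gene start on GRCh38.p14, were found for 8 of the 10 genes. The letters GAAANNGAAA, searched on both strands, were in the windows of IFIH1, TLR3 and EIF2AK2, which is 3 of 8, and in 3.57% of 35116 windows of all genes. The letters GAAANGAAA, with 1 base between the repeats in place of 2, were in the DDX58 window alone of the 8 and in 3.12% of all windows; this second spelling was added after the DDX58 window had been seen. Either spelling was in 6.40% of all windows. A match is a description of these letters and not evidence of binding. Only the DDX58 stretch was cut to bases upstream of annotated exons. All 10 bases of the TLR3 match and of the EIF2AK2 match lie in annotated exons, as do 8 of the IFIH1 match at the start. Of the 30 bases of the IFIH1 upstream stretch, 11 lie in annotated exons. Capitals mark the match, and capitals spelling TTTC mark a match on the other strand; each stretch is written on the strand of its gene, and the IFIH1 upstream stretch holds a pair of overlapping matches.
DDX58, chr9:32526325-32526446, minus strand: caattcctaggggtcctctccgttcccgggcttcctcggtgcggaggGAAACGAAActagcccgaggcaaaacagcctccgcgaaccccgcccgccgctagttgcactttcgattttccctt
IFIH1 upstream, chr2:162318821-162318850, minus strand: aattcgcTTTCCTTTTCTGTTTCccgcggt
IFIH1 at the start, chr2:162318686-162318715, minus strand: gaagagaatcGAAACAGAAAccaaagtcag
TLR3, chr4:186069142-186069171, plus strand: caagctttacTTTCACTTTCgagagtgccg
EIF2AK2, chr2:37156967-37156996, minus strand: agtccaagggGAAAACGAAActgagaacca
The windows of MAVS, TICAM1, TBK1 and IKBKE held neither spelling.

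DDX58, the gene of RIG-I (ENSG00000107201, chromosome 9, 32455705 to 32526324 on the minus strand of GRCh38), had the largest knockdown ratio of the 10 genes, in C4-2B MDVR. There it was at 5.71 and 5.06 FPKM in the knockdown libraries, from 501 and 358 fragments, against 1.20 FPKM in the control, from 108 fragments. In H660 it was at 6.31 and 4.73 FPKM in the knockdown libraries, against 5.90 FPKM in the control. Both C4-2B MDVR knockdown libraries thus lay within the range of the H660 libraries, and the C4-2B MDVR control lay below the other 5. The ratio to the control in C4-2B MDVR was 4.78 with siRNA 1 (95% interval 3.87 to 5.94) and 4.23 with siRNA 2 (3.40 to 5.30), and in H660 it was 1.07 (0.957 to 1.20) and 0.801 (0.712 to 0.900). These intervals are exact binomial ones from the fragment numbers and cover counting error only.

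Fitted on the log2(FPKM + 1) scale with limma over 15638 genes, the DDX58 difference between knockdown and control in C4-2B MDVR was 1.54 ± 0.21 (SE). It did not pass the adjustment over all genes (adjusted p = 0.457 by the Benjamini-Hochberg method, unadjusted p = 0.00140). It lay at percentile 99.6 of the differences of all genes tested, where no gene passed. In H660 the difference was −0.09 ± 0.21 (adjusted p = 1). The H660 effect minus the C4-2B MDVR effect was −1.63 ± 0.30 (unadjusted p = 0.00441, adjusted p = 0.985 by limma). With 1 control a line, the spread in this test comes from the 2 knockdown pairs, each of siRNA 1 and siRNA 2. It has 2 residual degrees of freedom, and the controls are taken to vary as those pairs do. The lower mitochondrial share of the C4-2B MDVR control moved with this difference. With mitochondrial genes and short RNAs left out and the libraries rescaled, the DDX58 difference was 1.43. That rescaling only takes those RNAs out of the library total. Any other way in which that 1 control library may differ, including one that goes with its mitochondrial share, cannot be told apart from the knockdown. In bulk RNA, more cells that express a gene and more RNA per cell cannot be told apart.

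**Figure D1:**
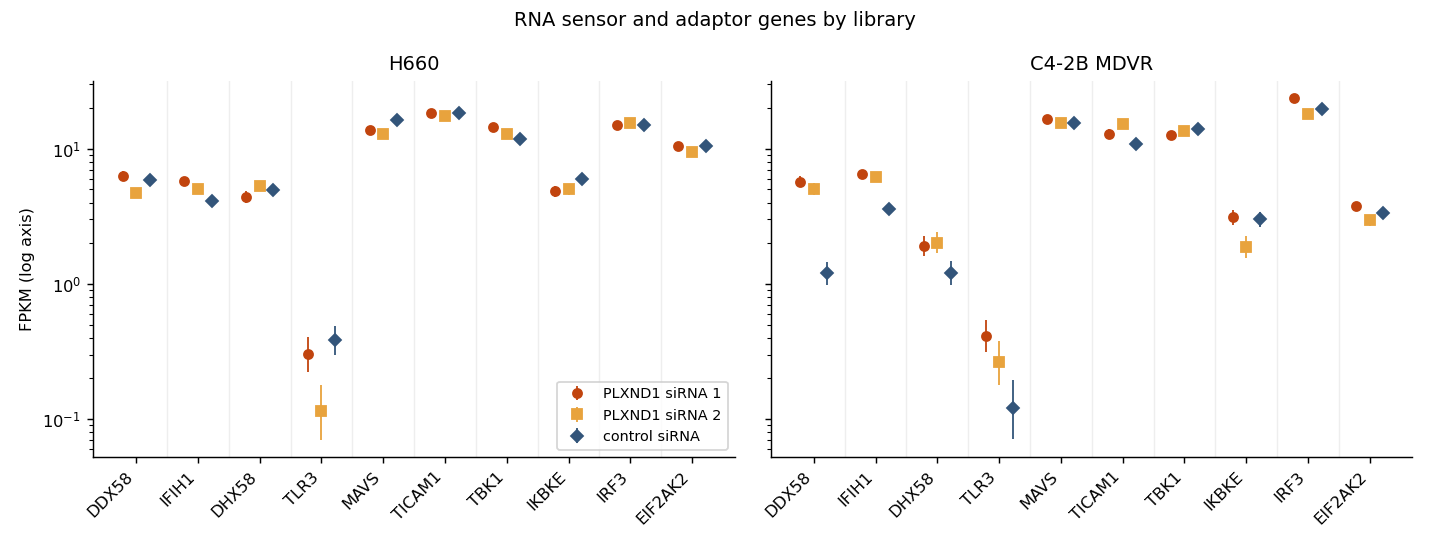
FPKM of the 10 genes (log axis) in each library, with PLXND1 siRNA 1 as circles, siRNA 2 as squares and the control siRNA as diamonds, in H660 (left) and C4-2B MDVR (right); bars are 95% exact Poisson intervals from recovered fragments, counting error only. The C4-2B MDVR control of DDX58, at 1.20 FPKM, lies apart from the other DDX58 points, which lie between 4.73 and 6.31 FPKM, and TLR3 is below 0.5 FPKM everywhere.

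IFIH1, the gene of MDA5 (ENSG00000115267, chromosome 2, 162267079 to 162318703, minus strand), was above the control in all 4 knockdown libraries. It was at 5.74 and 4.9996 FPKM in the H660 knockdown libraries, against 4.13 FPKM in the H660 control. In C4-2B MDVR it was at 6.48 and 6.21 FPKM in the knockdown libraries, against 3.59 FPKM in the control. Both knockdown libraries were above the 1 control in 33.9% of genes in H660 and 33.8% in C4-2B MDVR as well. Those shares are for each line alone and for any size. For IFIH1 the counting intervals of all 4 ratios lay above 1, and they cover counting error only. The share of all genes that meet this in both lines was not counted. In H660 the ratios were 1.39 (1.24 to 1.56) and 1.21 (1.08 to 1.36), and in C4-2B MDVR 1.81 (1.59 to 2.06) and 1.73 (1.51 to 1.98). IFIH1 had the lowest p-value of the 9 genes tested in the fit of both lines together, at 0.49 ± 0.13 log2 units (SE, unadjusted p = 0.0101), and did not pass the adjustment (adjusted p = 0.985 by limma). By line, its difference was 0.31 ± 0.16 in H660 (adjusted p = 1) and 0.68 ± 0.16 in C4-2B MDVR (adjusted p = 0.714), and the test of H660 minus C4-2B MDVR gave −0.37 ± 0.22 (adjusted p = 0.985).

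DHX58 encodes LGP2, a relative of RIG-I and MDA5 without their signalling domains, and lies on chromosome 17 from 42101404 to 42112733 on the minus strand (ENSG00000108771). It was at 4.42 and 5.32 FPKM in the H660 knockdown libraries, on either side of the 4.93 FPKM of the H660 control. In C4-2B MDVR it was at 1.91 and 2.02 FPKM in the knockdown libraries, against 1.20 FPKM in the control, and the counting intervals of both ratios lay above 1, at 1.59 (1.22 to 2.07) and 1.68 (1.27 to 2.21). Even so, every C4-2B MDVR library was below every H660 library. The limma difference in C4-2B MDVR was 0.43 ± 0.17 log2 units (adjusted p = 0.865), and in H660 it was −0.02 ± 0.17 (adjusted p = 1).

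TLR3, the endosomal sensor (ENSG00000164342, chromosome 4, 186069152 to 186088069, plus strand), was near the limit of detection in both lines and was the 1 of the 10 genes below the level filter of a mean of 1 FPKM in a line, so it entered no test. It was at 0.304 and 0.115 FPKM in the H660 knockdown libraries, from 48 and 20 fragments, against 0.384 FPKM in the H660 control, from 64 fragments. In C4-2B MDVR it was at 0.414 and 0.266 FPKM in the knockdown libraries, from 56 and 29 fragments, against 0.122 FPKM in the control, from 17 fragments. The knockdown libraries were thus below the control in H660 and above it in C4-2B MDVR. The H660 ratios were 0.790 (0.532 to 1.17) and 0.300 (0.172 to 0.503), and within H660 siRNA 1 gave 2.63 times the level of siRNA 2 (1.53 to 4.68). The C4-2B MDVR ratios were 3.39 (1.94 to 6.23) and 2.18 (1.16 to 4.22).

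The adaptors were among the highest of the 10 genes, and no knockdown difference of theirs passed the test. MAVS (ENSG00000088888, chromosome 20, 3846799 to 3876123, plus strand), the adaptor of RIG-I and MDA5, was at 13.7 and 12.9 FPKM in the H660 knockdown libraries, against 16.4 FPKM in the control. The C4-2B MDVR knockdown libraries had 16.7 and 15.4 FPKM of it, against 15.6 FPKM in the control. In H660 both ratios, 0.835 and 0.788, had counting intervals below 1, and the limma difference was −0.28 ± 0.15 log2 units (adjusted p = 1); in C4-2B MDVR the control lay between the knockdown libraries. TICAM1 (ENSG00000127666, chromosome 19, 4815932 to 4831704, minus strand), the adaptor of TLR3, was at 18.4 and 17.3 FPKM in the H660 knockdown libraries and 18.4 FPKM in the control. In C4-2B MDVR TICAM1 was at 12.95 and 15.1 FPKM, against 10.9 FPKM in the control. There both knockdown libraries were above the control, with ratios of 1.19 (1.07 to 1.33) and 1.39 (1.25 to 1.56), a limma difference of 0.34 ± 0.17 (adjusted p = 0.898).

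Neither kinase upstream of IRF3 passed the knockdown test in either line. TBK1 (ENSG00000183735, chromosome 12, 64451880 to 64502108, plus strand) was at 14.5 and 12.9 FPKM in the H660 knockdown libraries, against 11.7 FPKM in the control, while the C4-2B MDVR knockdown libraries had 12.7 and 13.5 FPKM, against 13.9 FPKM in the control. IKBKE (ENSG00000263528, chromosome 1, 206470476 to 206496889, plus strand) was at 4.85 and 5.02 FPKM in the H660 knockdown libraries, against 5.93 FPKM in the control. In C4-2B MDVR the siRNAs parted on IKBKE, with 3.12 FPKM for siRNA 1 and 1.88 FPKM for siRNA 2, against 3.02 FPKM in the control. The ratio of siRNA 1 to siRNA 2 there was 1.65 (1.32 to 2.08). The limma differences were 0.20 ± 0.16 and −0.08 ± 0.16 for TBK1 in H660 and C4-2B MDVR, and −0.23 ± 0.26 and −0.22 ± 0.26 for IKBKE, with adjusted p of 0.990 to 1.

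IRF3 (ENSG00000126456, chromosome 19, 49659569 to 49665875, minus strand), the factor that these kinases activate, was at 14.97 and 15.4 FPKM in the H660 knockdown libraries and 14.96 FPKM in the control. C4-2B MDVR had 23.7 FPKM of it with siRNA 1 and 18.2 FPKM with siRNA 2, on either side of the 19.7 FPKM of the control. EIF2AK2 (ENSG00000055332, chromosome 2, 37099210 to 37157065, minus strand) encodes PKR, which on binding double-stranded RNA phosphorylates eIF2-alpha and halts translation. It was at 10.49 and 9.54 FPKM in the H660 knockdown libraries, against 10.52 FPKM in the control, while the C4-2B MDVR knockdown libraries had 3.78 and 2.95 FPKM, against 3.32 FPKM in the control. For both genes the C4-2B MDVR control lay between the siRNAs. Their 4 limma differences ran from −0.07 to 0.08 log2 units, each with an adjusted p of 1. Of the exon bases of IRF3, 19.3% lie opposite exons of BCL2L12, and 14.7% of those of TBK1, 4.12% of IKBKE and 4.05% of EIF2AK2 also lie opposite another gene; whether the authors counted by strand is not given in the sources used here, so part of these levels may belong to the neighbours.

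**Figure D2:**
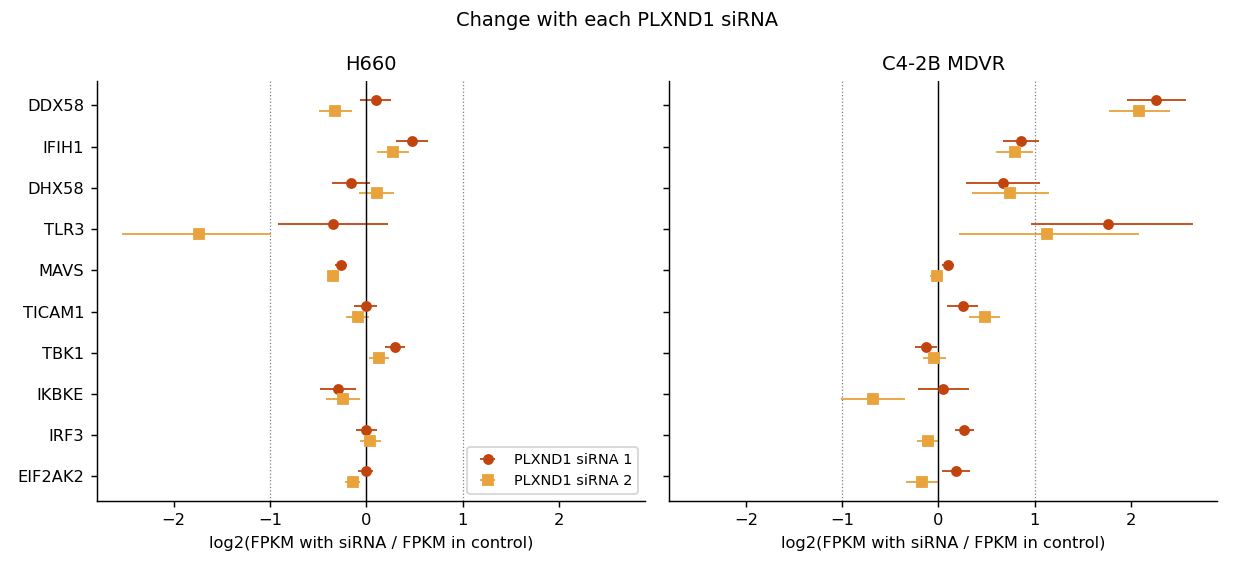
Log2 ratio of FPKM with each PLXND1 siRNA (circles, siRNA 1; squares, siRNA 2) to the control of the line, for H660 (left) and C4-2B MDVR (right); bars are 95% exact binomial intervals, counting error only, and dotted lines mark 2-fold. In C4-2B MDVR, DDX58 lies beyond 2-fold with both siRNAs, at ratios of 4.78 and 4.23, while in H660 its points lie on either side of 0.

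Over the 9 genes tested, no knockdown difference passed. In H660 limma called 0 of 9 and 0.0% of all 15638 genes higher, and likewise 0 of 9 and 0.0% lower, with 0 of 9 and 647 of all genes at an unadjusted p under 0.05. For C4-2B MDVR it called 0 of 9 and 0.0% of all genes in either direction, with 2 of 9, DDX58 and IFIH1, and 921 of all genes at an unadjusted p under 0.05. For the H660 effect minus the C4-2B MDVR effect the call was again 0 of 9 and 0.0%, with DDX58 and 701 of all genes at an unadjusted p under 0.05. For both lines together it was 0 of 9 and 0.0%, with IFIH1 and 654 of all genes. The median difference of the 9 genes was −0.04 log2 units in H660, beside −0.01 for all genes, and 0.08 in C4-2B MDVR, beside 0.02 for all genes. The median of the H660 effect minus the C4-2B MDVR effect was −0.32 for the 9 genes and −0.03 for all genes. Of the 9, 8 were below 0, the exception being TBK1, while 46.1% of all genes were above 0. All 9 values rest on the same 1 control a line. IKBKE and IRF3, at −0.00 and −0.06, turned positive under some scalings.

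Counted by size with no test, in each line among genes with a mean of at least 1 FPKM there, few of the 9 genes stood out. With both siRNAs, 3 of 9 (IRF3, TBK1 and IFIH1) were above the H660 control at any size, beside 33.9% of 13946 genes, and 4 of 9 (MAVS, TICAM1, IKBKE and EIF2AK2) were below it, beside 39.2%. At 1.5-fold on the log2(FPKM + 1) scale, 0 of 9 were higher in H660, beside 1.86%, and 0 of 9 lower, beside 0.782%. In C4-2B MDVR 4 of 9 (DDX58, IFIH1, DHX58 and TICAM1) were above the control with both siRNAs, beside 33.8% of 12888 genes, and 1 of 9 (TBK1) was below it, beside 25.6%; both counts are near the shares of all genes. At 1.5-fold, DDX58 and IFIH1, 2 of 9, were higher in C4-2B MDVR, beside 2.38%, and 0 of 9 lower, beside 1.22%. At 2-fold 0 of 9 were higher in H660, beside 0.423%, and 0 of 9 lower, beside 0.28%. In C4-2B MDVR DDX58 was higher by 2-fold, 1 of 9 beside 0.791%, and it was 1 of 102 such genes, while 0 of 9 were lower, beside 0.341%.

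**Figure D3:**
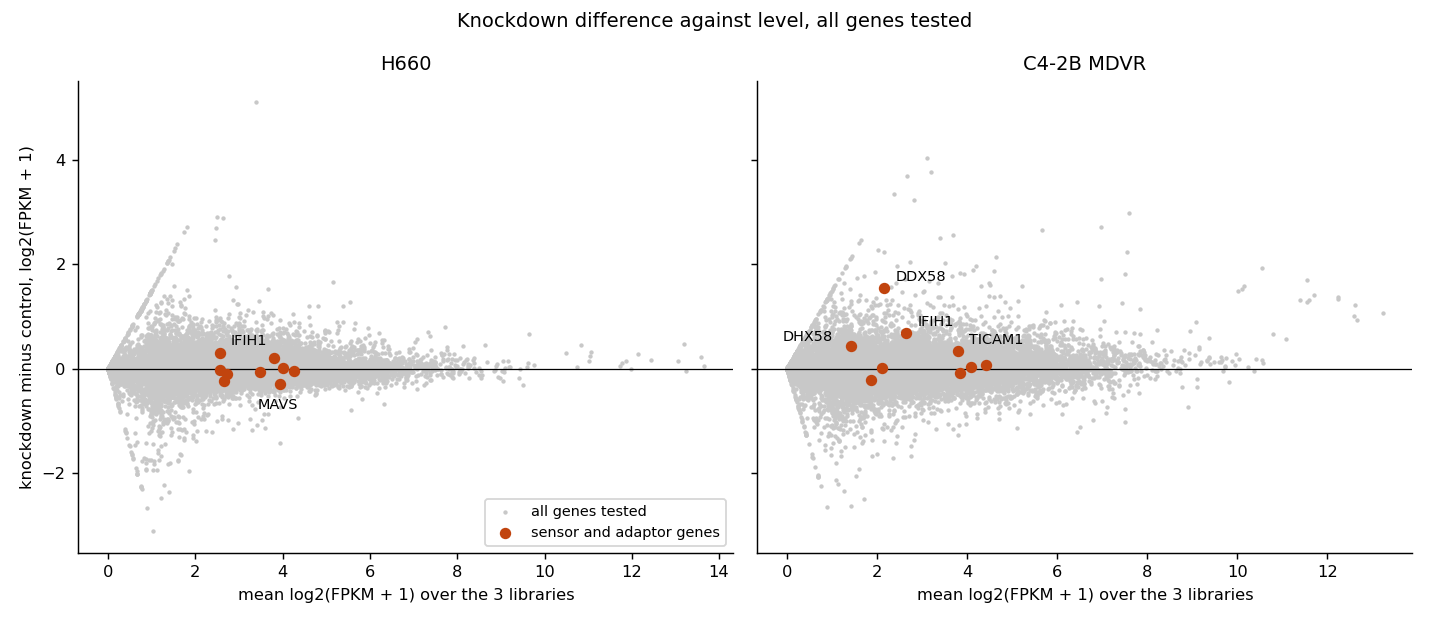
Knockdown minus control against mean level, both on the log2(FPKM + 1) scale, for all 15638 genes tested (grey) and the 9 sensor and adaptor genes tested (red), in H660 (left) and C4-2B MDVR (right). In C4-2B MDVR DDX58 lies at 1.54 and IFIH1 at 0.68, at percentiles 99.6 and 96.9 of all differences, and in H660 the 9 genes lie between −0.28 and 0.31, within the grey cloud.

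In the control libraries, ranked by FPKM, TICAM1, MAVS, IRF3 and TBK1 were the 4 highest in both lines. The FPKM divide by the length of all annotated exons, 11771 bases for MAVS and 2676 for TICAM1. Whether these lines use all those exons was not tested, so the order holds for FPKM only. In the H660 control the order was TICAM1 (18.4 FPKM), MAVS, IRF3, TBK1 (11.7), EIF2AK2 (10.52), IKBKE (5.93), DDX58 (5.90), DHX58 (4.93), IFIH1 (4.13) and TLR3 (0.384). In the C4-2B MDVR control it was IRF3 (19.7 FPKM), MAVS, TBK1, TICAM1 (10.9), IFIH1 (3.59), EIF2AK2 (3.32), IKBKE (3.02), DHX58 (1.20), DDX58 (1.20) and TLR3 (0.122). Neighbours whose counting intervals overlapped were IKBKE with DDX58 and DHX58 with IFIH1 in H660, and IFIH1 with EIF2AK2, EIF2AK2 with IKBKE and DHX58 with DDX58 in C4-2B MDVR. Each order rests on 1 library. The H660 control over the C4-2B MDVR control was 4.93 (4.02 to 6.11) for DDX58, 4.09 (3.28 to 5.15) for DHX58, 3.16 (2.92 to 3.44) for EIF2AK2, 3.15 (1.82 to 5.74) for TLR3, 1.97 (1.69 to 2.30) for IKBKE and 1.70 (1.54 to 1.87) for TICAM1. The other 4 ratios lay between 0.761, for IRF3, and 1.15, for IFIH1. With knockdown the line ratio of DDX58 was 1.10 (0.982 to 1.24) for siRNA 1 and 0.933 (0.815 to 1.07) for siRNA 2, so a difference was not detectable there at this depth, while that of EIF2AK2 was 2.78 and 3.24.

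Over all 6 libraries, EIF2AK2 and DHX58 were higher in H660 than in C4-2B MDVR by the additive limma fit of line and treatment, where a call needs an adjusted p under 0.05 and a 2-fold difference. EIF2AK2 averaged 10.2 ± 0.555 FPKM in H660 and 3.35 ± 0.415 FPKM in C4-2B MDVR (SD over the 3 libraries of a line), a log2 difference of 1.37 ± 0.12 (SE, adjusted p = 0.000155). DHX58 averaged 4.89 ± 0.454 FPKM in H660 and 1.71 ± 0.442 FPKM in C4-2B MDVR, a difference of 1.13 ± 0.14 (adjusted p = 0.000695). The DHX58 call rests on the 2-fold limit: the difference was 0.98 without either control library and 0.99 after quantile normalization. These 2 of 9 genes called higher stand beside 20.1% of all 15638 genes, and 0 of 9 were called lower, beside 17.9%, so the share is near that of all genes.

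IKBKE was higher in H660 by 0.79 ± 0.16 log2 units (adjusted p = 0.00472) and TICAM1 by 0.46 ± 0.13 (adjusted p = 0.0202), both short of 2-fold; IKBKE passed it after rescaling (1.01) and by limma's voom on recovered fragments (1.03). IRF3 was lower in H660 by the same fit, with a difference of −0.41 ± 0.13 (adjusted p = 0.0277, and 0.409 after rescaling). DDX58 did not pass, at 0.56 ± 0.34 (adjusted p = 0.181), and without either control library its difference was 0.02. MAVS, IFIH1 and TBK1 had differences of −0.15, −0.09 and −0.04 log2 units, which rescaling after removal of mitochondrial genes and short RNAs turned to 0.12, 0.16 and 0.23; that rescaling moved the median of all genes to 0.23. All 3 H660 libraries were above all 3 C4-2B MDVR libraries for DHX58, TICAM1, IKBKE and EIF2AK2, 4 of 9 beside 37.1% of all genes, and below them for IRF3, 1 of 9 beside 37.4%. The median difference of the 9 genes was 0.46 log2 units, beside −0.00 for all genes.

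**Figure D4:**
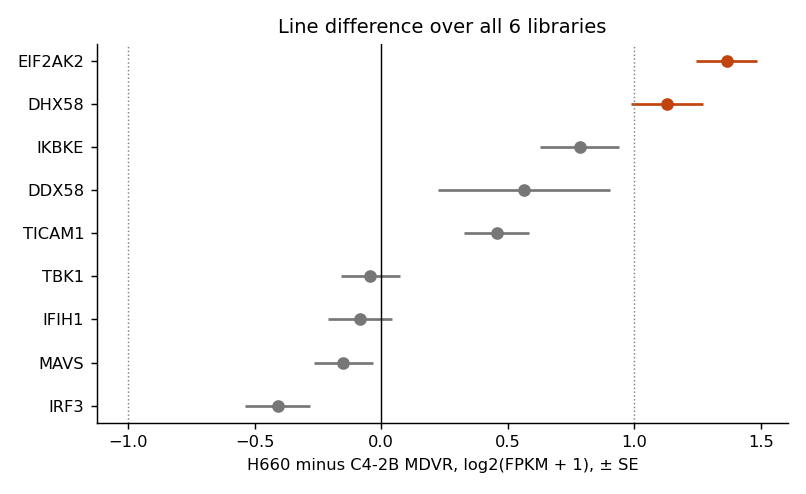
H660 minus C4-2B MDVR over all 6 libraries for the 9 genes tested, as log2(FPKM + 1) differences with their SE from the additive limma fit; red points passed an adjusted p under 0.05 and 2-fold (dotted lines). EIF2AK2 (1.37) and DHX58 (1.13) lie beyond 2-fold, and DDX58 (0.56) has the widest error.

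Ratios between members within a library, which no scaling of the library can change, set the C4-2B MDVR control apart where DDX58 was taken over MAVS or IFIH1. DDX58 over its adaptor MAVS was 0.462 and 0.366 in the H660 knockdown libraries and 0.360 in the control, and 0.342 and 0.328 in the C4-2B MDVR knockdown libraries, against 0.0765 in the control. DDX58 over IFIH1 was 1.10 and 0.945 in the H660 knockdown libraries, against 1.43 in the control, and 0.881 and 0.816 in the C4-2B MDVR knockdown libraries, against 0.334 in the control. Over DHX58, DDX58 was at 1.43 and 0.888 in the H660 knockdown libraries, against 1.20 in the control, and at 2.99 and 2.51 in the C4-2B MDVR knockdown libraries, against 0.993 in the control. Here the C4-2B MDVR knockdown libraries were the highest and that control lay within the H660 range. IFIH1 over MAVS was 0.420 and 0.387 in the H660 knockdown libraries, against 0.252 in the control, and 0.388 and 0.402 in the C4-2B MDVR knockdown libraries, against 0.229 in the control. That ratio was therefore higher in each of the 4 knockdown libraries than in either control. In H660 part of this lies in MAVS, at 13.7 and 12.9 FPKM in the knockdown libraries against 16.4 FPKM in the control. How many other gene pairs separate in this way was not counted. IKBKE over TBK1 was 0.335 and 0.390 in the H660 knockdown libraries, against 0.506 in the control, and 0.245 and 0.139 in the C4-2B MDVR knockdown libraries, against 0.216 in the control. These ratios are descriptions with no test.

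Of 16 cofactors of the RNA sensors, 0 passed the limma test of knockdown in either line, and their median difference was 0.00 in H660 and −0.03 in C4-2B MDVR. In C4-2B MDVR 5 of 16 were higher with both siRNAs, beside 33.8% of all genes, and 7 of 16 lower, beside 25.6%. DDX60, a helicase reported to aid RIG-I signalling, had a pattern near that of DDX58, at 3.59 and 2.97 FPKM in the H660 knockdown libraries, against 3.21 FPKM in the control, while the C4-2B MDVR knockdown libraries had 2.06 and 1.90 FPKM, against 0.450 FPKM in the control. Its C4-2B MDVR ratios were 4.58 (3.47 to 6.11) and 4.21 (3.17 to 5.68), with a log2 difference of 1.04 ± 0.17 (adjusted p = 0.555). ZNFX1, a mitochondrial helicase that binds viral RNA, was at 0.73 (adjusted p = 0.744), the antiviral zinc finger gene ZC3HAV1 at 0.40 (adjusted p = 0.901), and the RNA helicase gene DHX9 at −0.51 (adjusted p = 0.822). Between the lines 1 of the 16 was called higher in H660, beside 20.1% of all genes, and 4 lower, beside 17.9%. NLRX1, reported as a negative regulator of MAVS, was called lower in H660, with a difference of −1.90 ± 0.10 log2 units (adjusted p = 2.48e-05), and so was ZC3HAV1, with −1.28 ± 0.17 (adjusted p = 0.000893).

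Of 15 signalling partners of MAVS and TBK1, 0 passed in either line with knockdown, with medians of −0.02 in H660 and 0.10 in C4-2B MDVR. TBKBP1, a binding partner of TBK1, was at 1.97 and 2.53 FPKM in the H660 knockdown libraries, against 1.87 FPKM in the control, while the C4-2B MDVR knockdown libraries had 27.1 and 24.9 FPKM, against 16.0 FPKM in the control. Its difference in C4-2B MDVR was 0.67 ± 0.18 (adjusted p = 0.761), and those of IKBKG, the regulatory subunit of the IKK complex, and IRF7, the relative of IRF3, were both 0.45 (adjusted p = 0.898 and 0.866), with the caspase gene CASP8 at 0.25 (adjusted p = 0.970). Between the lines 2 of 15 were called higher in H660, beside 20.1% of all genes, and 3 lower, beside 17.9%. Among them were RIPK1, a kinase recruited by TICAM1, at 1.77 ± 0.11 (adjusted p = 4.10e-05), and TBKBP1 at −2.89 ± 0.15 (adjusted p = 2.00e-05).

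Among 11 other nucleic acid sensors and their partners in the table, 4 had enough expression to be tested and 0 passed with knockdown. TLR8, AIM2 and ZBP1 were listed at 0 in all 6 libraries, and CGAS, the cytosolic DNA sensor, was at most 0.164 FPKM. Its partner TMEM173 (STING) was at 31.7 and 34.99 FPKM in the H660 knockdown libraries, against 39.8 FPKM in the control, while the C4-2B MDVR knockdown libraries had 7.42 and 1.73 FPKM, against 4.54 FPKM in the control. It was the 1 of these 4 called higher in H660 (2.85 ± 0.39, adjusted p = 0.00101), beside 20.1% of all genes, while UNC93B1, which carries TLR3 to endosomes, was higher by 0.78 ± 0.11, short of 2-fold (adjusted p = 0.00113), and differed by −0.05 with knockdown in C4-2B MDVR. Of the 6 genes of eIF2 subunits and the other eIF2 kinases, 0 passed with knockdown and 0 reached the line call. EIF2AK3 (PERK) was at 0.20 in C4-2B MDVR (adjusted p = 0.988), and the line differences of EIF2AK4 and EIF2S1 were both −0.68, short of 2-fold (adjusted p = 0.00596 and 0.00174).

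Of 8 genes of interferon receptor signalling, 7 were tested and 0 passed with knockdown, with a median of −0.09 in H660 and 0.24 in C4-2B MDVR. IRF1, an interferon-induced factor, was at 10.4 and 11.01 FPKM in the H660 knockdown libraries, against 9.55 FPKM in the control, while the C4-2B MDVR knockdown libraries had 0.669 and 1.89 FPKM, against 0.223 FPKM in the control. Its C4-2B MDVR difference was 0.84 ± 0.36 (adjusted p = 0.870), and those of IRF9 and JAK1, which carry the signal of the interferon receptor, were 0.26 and −0.20 (adjusted p = 0.970 and 0.948). IRF1 and JAK1 were the 2 of 7 called higher in H660, at 2.65 ± 0.25 (adjusted p = 0.000204) and 2.51 ± 0.10 (adjusted p = 9.13e-06), beside 20.1% of all genes, with 0 of 7 called lower, beside 17.9%.

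**Figure D5:**
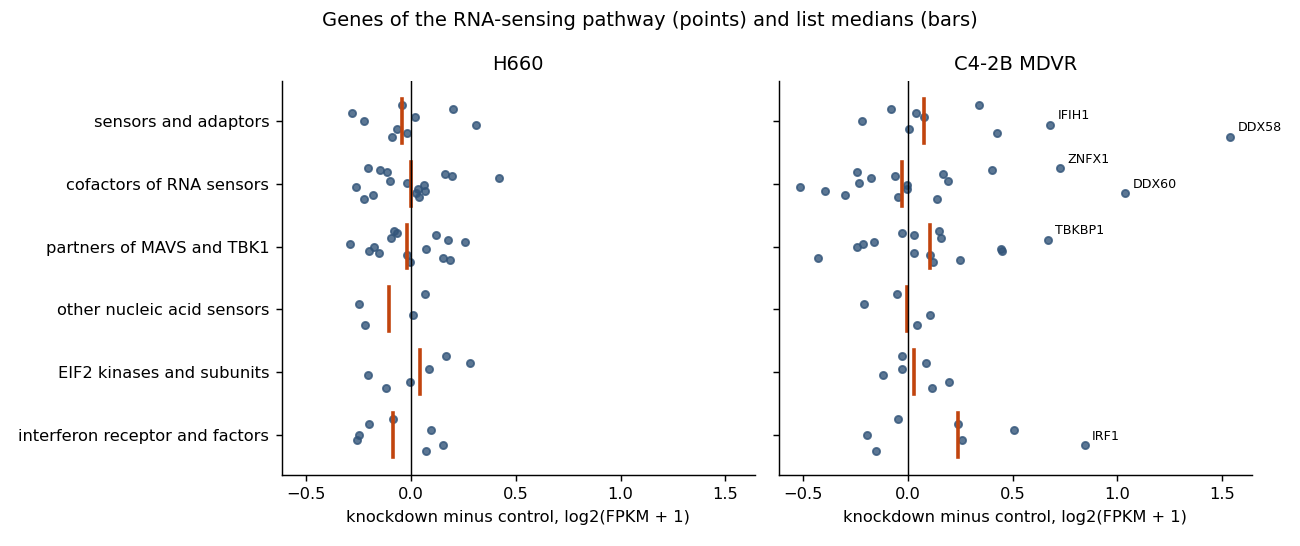
Knockdown minus control on the log2(FPKM + 1) scale for each tested gene of the 9 sensor and adaptor genes and of 5 lists of related genes (points; vertical place within a row has no meaning), with the list medians as red bars, in H660 (left) and C4-2B MDVR (right). In C4-2B MDVR DDX58 (1.54), DDX60 (1.04) and IRF1 (0.84) lie farthest to the right, and the medians lie between −0.03 and 0.24.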

How the data were processed

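Messenger RNA libraries of 6 samples were sequenced as paired reads of 150 bases, per the labels' protocols. HISAT, Cufflinks and the build hg18 are named in the submitters' processing notes, without versions. The deposited values are FPKM for 58735 Ensembl genes, computed by the authors; gene names and GRCh38 coordinates come from GENCODE release 29, which holds all 58735. FPKM times the exon length of that release was a whole number of fragments, within 0.05, for 100% of the genes of at most 100 fragments, and recovered fragments gave the 95% exact intervals (Poisson for a level, binomial for a ratio), which cover counting error only. The total implied by the FPKM was 0.920 to 1.08 times the recovered total, and the deposited FPKM were used as they stand. In C4-2B MDVR this factor was 0.926 and 0.920 in the knockdown libraries and 1.01 in the control. In H660 it was 1.07 in both knockdown libraries and 1.08 in the control. Ratios to the C4-2B MDVR control would thus be lower if scaled by recovered totals, which the counting intervals do not cover.

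Tests ran in limma 3.58.1 (R 4.3.3) on the log2(FPKM + 1) scale (intensity trend, two-sided, Benjamini-Hochberg over 15638 genes with a mean of at least 1 FPKM over the 3 libraries of a line, threshold 0.05), in a fit of 4 groups (2 residual degrees of freedom) and an additive fit (3). Fold changes on this scale understate changes of low genes. The p-values measure the spread between these libraries. In the fit of 4 groups this is the spread between siRNA 1 and siRNA 2 within a line. It holds differences between the siRNAs together with any technical ones. In the additive fit it also holds any difference of the knockdown effect between the lines. The genes described, the lists and the rule for names (all 10 members, PLXND1, and per list up to 4 genes with the largest same-sign C4-2B MDVR change and the 2 with the largest line difference) were chosen with earlier results of these data known. A gene that the rule for names takes is not reported here. Promoters come from RefSeq (GRCh38.p14); DDX58 was matched by its synonym RIGI. Alternatives were another pseudocount (0.1), other filters, quantile normalization, rescaling without mitochondrial and short RNAs, voom, siRNA number as a block, and leaving out each library.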

Additional observations from a re-analysis of the deposited data

Results flagged for a closer look

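TLR3 is singled out because it entered no test and moved in opposite directions in the lines. Both knockdown libraries were below the control in H660 and above it in C4-2B MDVR. Among genes above the level filter of each line, 39.2% were below the control with both siRNAs in H660. In C4-2B MDVR 33.8% were above it. The share of genes that do both was not counted, so the opposite signs are not shown to be unusual. The mean H660 change minus the mean C4-2B MDVR change was −0.453 on the log2(FPKM + 1) scale. This difference was not tested, since TLR3 was below the level filter, and it rests on 17 to 64 fragments per library. The counting interval of the H660 ratio with siRNA 1 included 1. By sign alone, TICAM1 had the same directions as TLR3 in both lines, and TBK1 the reverse. In H660, however, TICAM1 with siRNA 1 was at 18.37 FPKM, within the counting interval of its control at 18.43 FPKM. For TICAM1 and TBK1 the H660 effect minus the C4-2B MDVR effect was tested and did not pass (−0.38 and 0.28 log2 units, adjusted p = 0.985 by limma for each).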

How the results depend on the processing

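In each line the knockdown comparison has 1 control, so no control could be left out of it, and levels of TLR3 are limited by depth. The DDX58 difference in C4-2B MDVR ran from 1.42 to 2.13 log2 units over the alternatives, with an adjusted p of 0.150 to 1. The labels give no pairing of samples beyond the siRNA number. Between the lines, siRNA 1 minus siRNA 2 had r = −0.00435 across genes. This value cannot show whether libraries of the same number were handled together. With siRNA number as a replicate block 1 gene was called in H660, against 0 without it. The DDX58 difference in C4-2B MDVR stayed at 1.54 with that block (adjusted p = 0.324 by limma). The cause of each change below was not tested. Without a filter on low values 876 genes were called in H660, 851 in C4-2B MDVR and 1372 for the difference between the lines' effects, against 0 each with it. In H660 1 gene was called with a pseudocount of 0.1, with a mean of at least 1 FPKM required over all 6 libraries and with quantile normalization, and in C4-2B MDVR 2 after rescaling without mitochondrial and short RNAs. Leaving out each library gave 0 calls for every knockdown comparison and 5851 to 6028 for the line difference.

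Counts with both siRNAs in H660 at a pseudocount of 0.1 were 472 higher and 225 lower at 1.5-fold and 142 and 81 at 2-fold, and after rescaling 32 and 13 at 2-fold. In C4-2B MDVR they were 288 lower at 1.5-fold and 188 higher and 85 lower at 2-fold with that pseudocount, and after rescaling 160 higher at 1.5-fold and 48 higher and 24 lower at 2-fold.

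Some signs turned. In C4-2B MDVR these were those of MAVS (−0.028 by quantile normalization, −0.054 rescaled), IRF3 (−0.017 rescaled) and EIF2AK2 (−0.066 rescaled, −0.022 by voom). For the H660 effect minus the C4-2B MDVR effect they were IKBKE (0.040 with a pseudocount of 0.1, 0.039 rescaled, 0.043 by voom) and IRF3 (0.0085 by quantile normalization, 0.022 rescaled), and for both lines IRF3 (−0.0059 rescaled). In the line difference they were IFIH1 (0.16), MAVS (0.12) and TBK1 (0.23) when rescaled and TBK1 (0.071) by quantile normalization. Leaving out each library gave ranges across 0 in H660 for DDX58 (−0.27 to 0.084) and DHX58 (−0.13 to 0.093), and in C4-2B MDVR for MAVS (−0.017 to 0.092), IKBKE (−0.48 to 0.036), IRF3 (−0.11 to 0.26) and EIF2AK2 (−0.13 to 0.14). For the difference between the lines' effects they were IKBKE (−0.26 to 0.25), IRF3 (−0.24 to 0.13) and EIF2AK2 (−0.21 to 0.065), and for the line difference TBK1 (−0.12 to 0.051). For both lines together they were DDX58 (−0.093 to 1.54, against 0.72 with all libraries), DHX58 (−0.019 to 0.43), MAVS (−0.28 to 0.037), TICAM1 (−0.044 to 0.34), TBK1 (−0.080 to 0.20), IRF3 (−0.034 to 0.12) and EIF2AK2 (−0.094 to 0.024); for DDX58, DHX58 and TICAM1 the lowest value was the one without the C4-2B MDVR control. Values of single members that kept their direction and their side of the threshold numbered 97 in H660, 90 in C4-2B MDVR, 90 for the difference between the lines' effects, 107 for both lines together and 106 for the line difference.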
